A study of Saccharomyces cerevisiae with 22 samples.

Results

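The genes described here are 35 *Saccharomyces cerevisiae* genes of sulfate assimilation, methionine and cysteine synthesis, S-adenosylmethionine metabolism and their control, chosen by name out of 6373 measured features, 5311 of them named genes. All 35 were found, each by 1 probe spotted 2 times on the array. *MET17*, which encodes the sulfhydrylase that joins sulfide to O-acetylhomoserine, is deleted in one of the common laboratory strains as a marker, so it was kept apart and the counts below cover the other 34 genes. RNA of 12 mutant profiles was hybridised on 22 arrays with 2 dyes each, against a common pool of wild type RNA. In synthetic complete (SC) medium these were deletions of *SET2*, a histone methyltransferase, *EAF3* and *RCO1*, subunits of a histone deacetylase complex, *RTT103*, a termination factor, *RRP6*, a nuclease of the nuclear exosome, *LRP1*, a partner of Rrp6, and *CTK1*, a kinase of the C-terminal domain of RNA polymerase II. The same medium was used for the temperature-sensitive alleles *sen1-1*, of a helicase of early termination, and *pcf11-2* and *pcf11-ts2*, of a cleavage and polyadenylation factor. In YPD, a rich medium, *ctk1*Δ was measured again, together with *rpb1-S2A*, in which serine is replaced by alanine at the position of the C-terminal domain repeats that Ctk1 phosphorylates.

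By the labels, the pool and all strains are of BY4742 background, with *rpb1-S2A* marked as matA. The strain table of the study places *sen1-1*, both *pcf11* alleles and *rpb1-S2A* in BY4741, a MATa strain with *met15*, an older name of *MET17*, and the 7 deletion mutants in BY4742, a MATalpha strain with *lys2*. All of these strains carry a kanMX cassette, and the temperature-sensitive alleles were grown at a permissive temperature. A profile has arrays a and b, with the dyes exchanged, from cultures that the methods describe as inoculated independently. Each *pcf11* allele is the exception, with 1 array, whose spread was taken to be that of the other profiles. The pool is 1 control sample, so a ratio tested against it leaves out the spread of the wild type, and YPD is represented by mutants alone.

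Yeast reduces sulfate to sulfide in a chain of enzymatic steps, joins the sulfide to a carbon chain derived from aspartate to give homocysteine, and methylates homocysteine to methionine with a folate-borne methyl group. Methionine is activated to S-adenosylmethionine, the donor of most methyl groups in the cell, and transsulfuration exchanges sulfur between homocysteine and cysteine. Most of these genes are switched on by the activator Met4 with its partners Cbf1, Met28, Met31 and Met32 when sulfur amino acids are scarce, and the F-box protein Met30 holds Met4 in check when they are plentiful.

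Every value below is the log2 ratio of mutant over pool. A gene was counted as changed, and is said to have risen or fallen, when limma's Benjamini-Hochberg adjusted p over all features was under 0.05 and the fold change over 1.7. Of the 35 genes, 34 exceeded the local background on 22 of 22 arrays in both channels. The exception was *SUL1*, a sulfate permease, above it on 15 arrays in the mutant and 7 in the pool, so its ratios carry little information. Among the dimmest of the others were *SUL2*, *MET31*, *MET32*, *MMP1* and *MET2*, with lowest pool signals of 61, 64, 69.7, 77.3 and 77.8. *MET17* exceeded the background also in the profiles to which the strain table gives *met15*, so passing it does not by itself show expression. Median array signals lay between 274 and 1543. Each deleted gene was low in its own profile, from −2.46 for *CTK1* in YPD to −4.06 for *LRP1*. Over the 34 genes, arrays a and b of a profile differed by a median of 0.0863 to 0.125, and the largest gap, 0.718, was that of *SAM4* in *ctk1*Δ in YPD. A ratio in RNA of a whole culture does not tell fewer expressing cells from less RNA per cell.

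Changes sat in 9 of the 34 genes: *SAM2*, *SAM1*, *MET6* and *MET13* only ever fell, and *MET3*, *MET14*, *MET10*, *SUL2* and *MET32* only ever rose. The share of all features changed in at least 1 profile was not computed, so this count does not set the 34 apart. The other 25 passed in none of the 12 profiles. In 5 profiles no gene of the 34 passed: *set2*Δ, where 1.35% of all features rose and 0.267% fell, *eaf3*Δ (0.549% and 0.235%), *rco1*Δ (0.769% and 0.141%), *rtt103*Δ (0.126% and 1.15%) and *lrp1*Δ (0.973% and 0.282%). At an unadjusted p under 0.05 from the same limma fit, 15, 8, 10, 12 and 18 of the 34 passed in these 5, beside 37.4%, 26.8%, 30.7%, 29.6% and 34.5% of all features, and no other tool was run. In *rrp6*Δ 1 gene fell and 0 rose, beside 0.596% of features that fell and 1.63% that rose.

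In *ctk1*Δ in SC, 2 genes rose and 1 fell, against 7.28% and 2.84% of features. In *sen1-1*, 3 rose and 0 fell, against 5.21% and 1.29%. In *pcf11-2*, 0 rose and 3 fell, against 5.54% and 2.09%, and in *pcf11-ts2*, 0 rose and 1 fell, against 3.17% and 0.863%. In YPD, *ctk1*Δ had 0 higher and 4 lower genes against 6.79% and 2.7% of features. The highest count was that of *rpb1-S2A*, with 2 higher and 4 lower genes against 7.23% and 5.16%. The lower genes of either YPD profile were *MET6*, *MET13*, *SAM1* and *SAM2*. The median of the 34 ratios lay between −0.11 in *rrp6*Δ and 0.26 in *ctk1*Δ in SC, while the median of all features was within 0.02 of 0 in each profile.

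**Figure D1:**
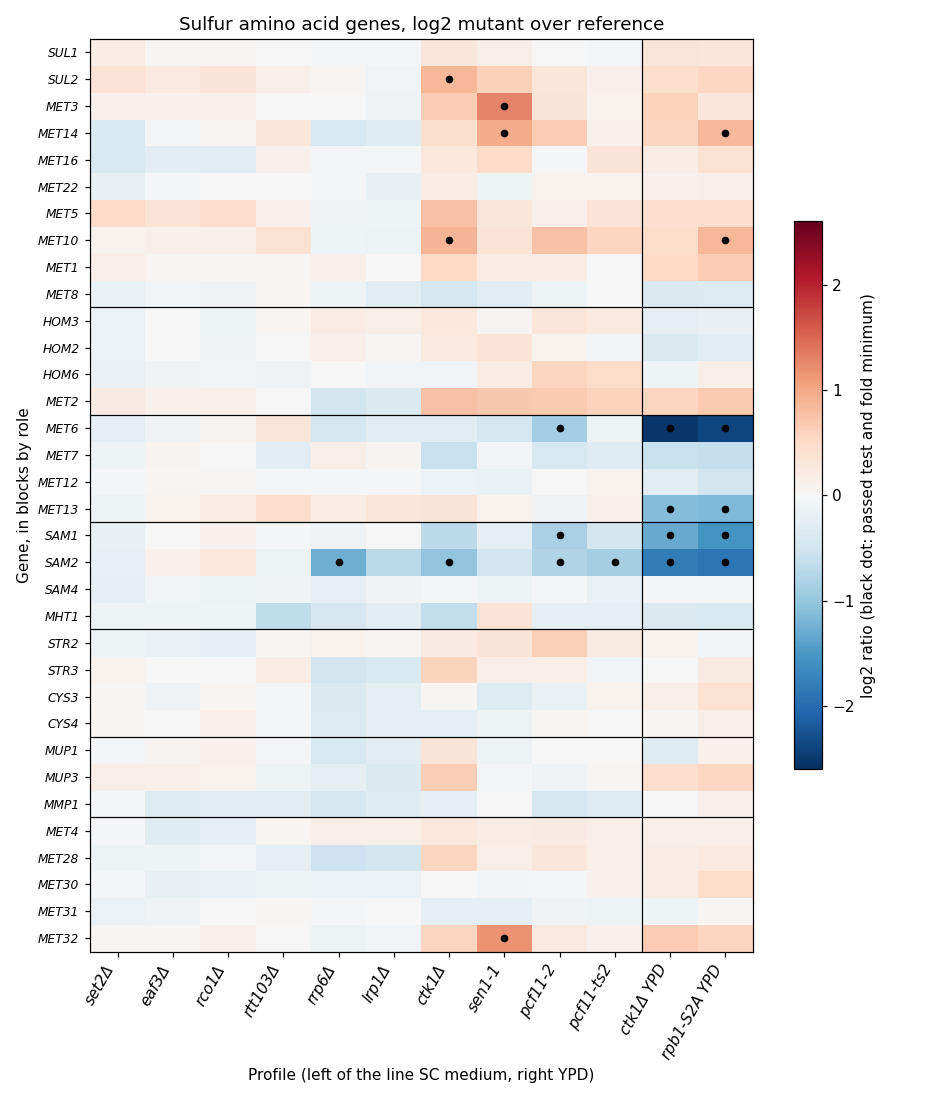
Log2 ratio of mutant over pool (colour) for 34 genes (rows, in blocks by role from sulfate uptake at the top to regulators at the bottom) in 12 profiles (columns). Black dots mark changed genes. *MET6* in the YPD profiles is the darkest cell, and the first block is mostly red in *ctk1*Δ, *sen1-1* and the YPD profiles.

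*MET17* itself separated the profiles by strain. In *sen1-1* its ratio was −5.04 on array a and −4.75 on array b, in *pcf11-2* −4.77, in *pcf11-ts2* −4.67, and in *rpb1-S2A* −4.43 and −3.54. Every one of these 6 arrays lay far below the other 16, whose lowest value was −0.90. On the 6, the mutant signal of *MET17* was near the floor. It ran from 68.7 on array a of *rpb1-S2A* to 130.4 in *pcf11-2*, over local backgrounds of 42 and 57. The floor limits the size of these ratios. In these 4 profiles the fall of *MET17* came with the mating type: the 7 a-specific genes rose and the 4 alpha-specific genes fell in each. *LYS2*, the other marker that distinguishes BY4741 from BY4742, was high in the same arrays (2.18 to 3.23). For any gene in these 4 profiles, mutation and strain background, with its loss of *MET17*, cannot be told apart in a ratio to the pool. The study compared the *SEN1* and *PCF11* mutants with MATa wild types, but no wild type profile is among these arrays.

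*LYS2* was also high in *ctk1*Δ, at 3.31 and 2.94 in SC and 2.28 and 1.83 in YPD, although the strain table gives that mutant the same parent as the other deletions, and the alpha-specific genes did not fall there. Some markers of both mating types rose in *ctk1*Δ. In SC and YPD these were the a-specific *MFA1* (1.00 and 0.91) and the alpha-specific *MF(ALPHA)2* (1.44 and 1.14), and in SC also the alpha-specific *SAG1* (0.82). The other markers of mating type did not pass there. The study names *MF(ALPHA)2* as an example of a coding gene with readthrough in *ctk1*Δ. *MET17* was 0.28 and 0.42 in *ctk1*Δ in SC and −0.15 and 0.14 in YPD, so these cells expressed it near the level of the pool. In *rrp6*Δ, by contrast, *MET17* was −0.90 and −0.80, a fall of 1.80-fold (adjusted p 0.000145), and in *lrp1*Δ it was −0.69 and −0.62, below the fold minimum. Centred on its median over the 12 profiles, the value in *rrp6*Δ was −0.38 and did not pass. That median, −0.465, takes in the profiles of strains with *MET17* deleted, so this centring does not test the fall in *rrp6*Δ.

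**Figure D2:**
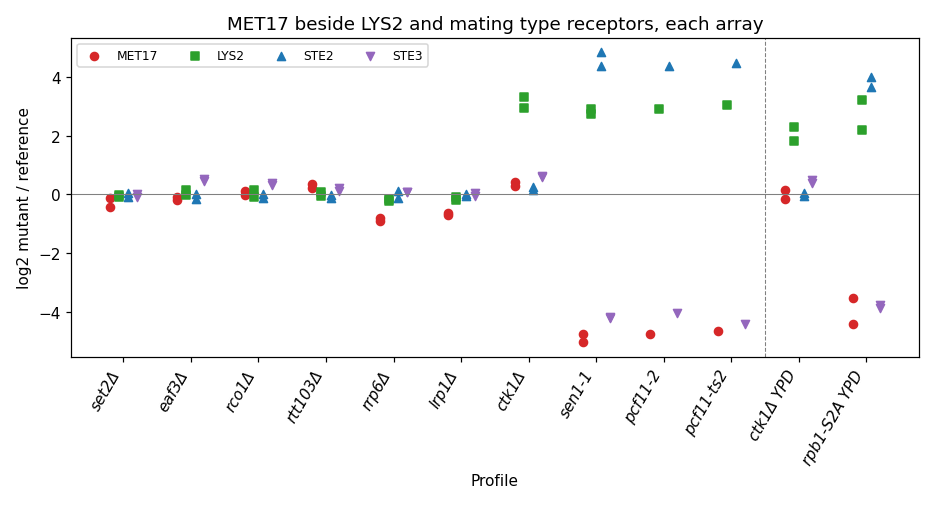
Log2 ratio of mutant over pool on each of 22 arrays for *MET17*, *LYS2*, *STE2* (a-specific) and *STE3* (alpha-specific), by profile. *MET17* and *STE3* are low and *STE2* is high on the same 6 arrays, while *LYS2* is also high in *ctk1*Δ.

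Sulfate uptake and reduction, with 10 genes, held most of the rises. The pathway runs from the sulfate permeases Sul1 and Sul2 through ATP sulfurylase (*MET3*), adenylylsulfate kinase (*MET14*) and phosphoadenylylsulfate reductase (*MET16*) to sulfite reductase, whose subunits are encoded by *MET5* and *MET10* and whose siroheme cofactor needs *MET1* and *MET8*. Of the 10, 2 rose and 0 fell in *ctk1*Δ in SC, and the median was 0.46, where 7.28% of features rose and 2.84% fell. The same block had 2 higher and 0 lower genes in *sen1-1* (median 0.33, beside 5.21% and 1.29% of features) and in *rpb1-S2A* (median 0.42, beside 7.23% and 5.16%), and none in *ctk1*Δ in YPD (median 0.44, beside 6.79% and 2.7%). With 10 genes, 1 gene is 10% of the block.

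*SUL2* was 0.91 and 0.80 on the arrays of *ctk1*Δ in SC, above all 20 other arrays, where it lay between −0.14 and 0.75. It rose 1.81-fold in that profile (0.85, standard error 0.056, adjusted p 5.5e-08). *MET10*, the flavin-binding subunit of sulfite reductase, was 0.98 and 0.78 in *ctk1*Δ in SC and rose 1.84-fold (0.88, standard error 0.080, adjusted p 9.9e-07). It was equally high in *rpb1-S2A* in YPD, at 0.98 and 0.75, a rise of 1.82-fold (adjusted p 8.8e-07). The arrays of *pcf11-2* and *pcf11-ts2* came next with 0.70 and 0.61, without passing the fold minimum. Centring each gene on its median over the 12 profiles, in place of the pool, ended the calls of *SUL2* (0.53) and *MET10* (0.51 in *ctk1*Δ, 0.49 in *rpb1-S2A*).

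*MET3* stood out in *sen1-1*, with 1.35 and 1.23 on its arrays, where the next highest was 0.72 in *ctk1*Δ in SC. The rise was 2.44-fold (1.29, standard error 0.067, adjusted p 6.2e-09). *MET14*, the next enzyme of the chain, was 1.14 and 0.77 in *sen1-1*, a rise of 1.94-fold (adjusted p 2.1e-07), and 0.92 and 0.77 in *rpb1-S2A*, a rise of 1.80-fold (adjusted p 4.0e-07). These pairs of arrays overlap, and the same centring ended both calls of *MET14* (0.75 and 0.63) but not that of *MET3*. Mutation and strain background cannot be told apart for these rises in *sen1-1* and *rpb1-S2A*. At the other end, *MET14* was −0.39 and −0.39 in *set2*Δ and −0.42 and −0.38 in *rrp6*Δ, the lowest values of that gene and below the fold minimum.

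Among the sulfate genes that passed nowhere, *MET5* reached 0.76 in *ctk1*Δ in SC, just under the fold minimum of 0.77 on the log2 scale, and *MET1* reached 0.66 in *rpb1-S2A*. *MET16* ranged from −0.39 to 0.51 and *MET22*, a phosphatase that clears the by-product of sulfate reduction, from −0.20 to 0.19. *MET8* went the other way from its siroheme partner *MET1*, with −0.46 in *ctk1*Δ in SC, −0.38 in *ctk1*Δ in YPD and −0.35 in *rpb1-S2A*, where *MET1* had 0.51, 0.51 and 0.66.

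**Figure D3:**
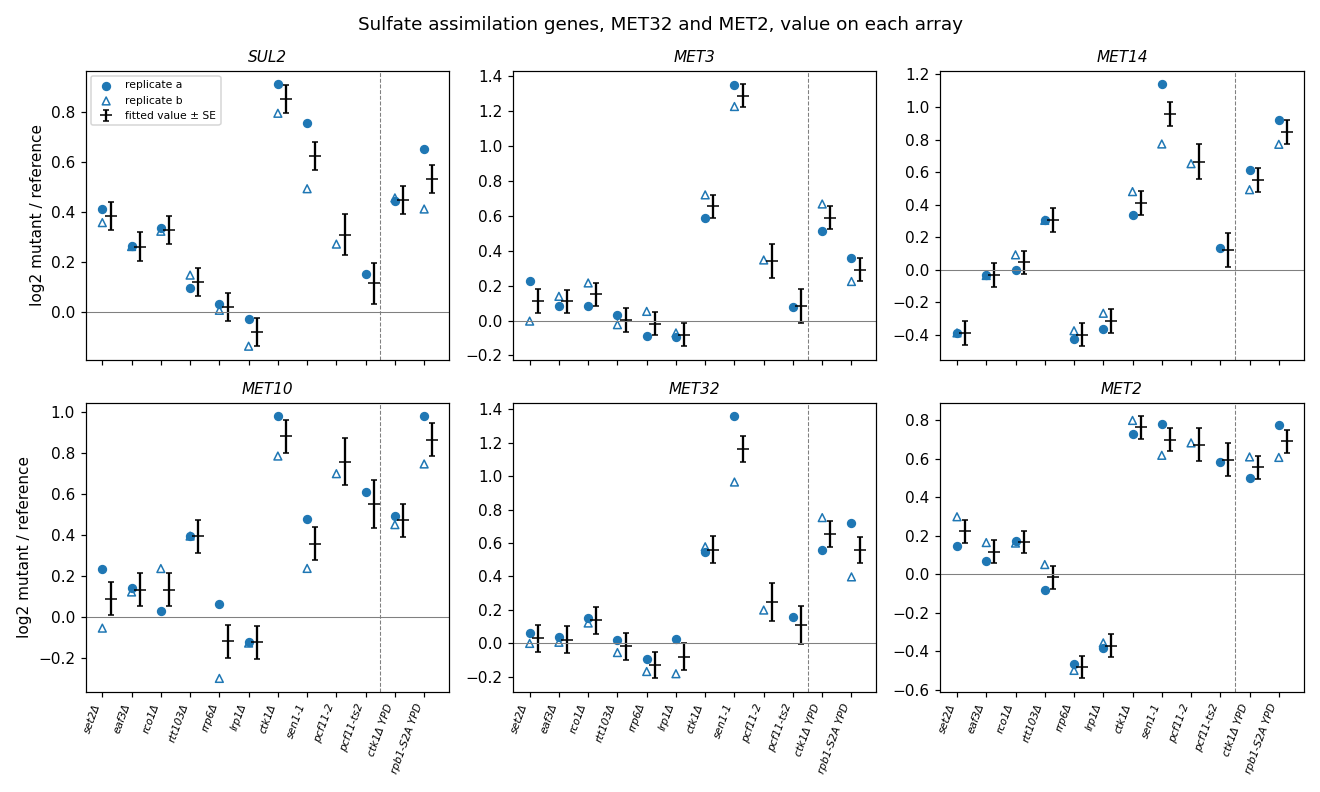
Log2 ratio of mutant over pool for 6 genes by profile, with filled circles for array a, open triangles for array b and bars for the fitted value with its standard error. *MET3* and *MET32* peak in *sen1-1*, *SUL2* in *ctk1*Δ in SC, and *MET2* is above 0.5 in 6 profiles and lowest in *rrp6*Δ and *lrp1*Δ.

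The carbon chain that accepts sulfide is made from aspartate by aspartate kinase (*HOM3*), aspartate semialdehyde dehydrogenase (*HOM2*), homoserine dehydrogenase (*HOM6*) and homoserine O-acetyltransferase (*MET2*), and none of these 4 genes passed in any profile. *MET2*, the first step that serves methionine alone, lay close to the fold minimum in 6 profiles. It was 0.73 and 0.80 in *ctk1*Δ in SC, 0.78 and 0.62 in *sen1-1*, and 0.68 and 0.58 on the single arrays of *pcf11-2* and *pcf11-ts2*. In YPD it was 0.50 and 0.61 in *ctk1*Δ and 0.77 and 0.61 in *rpb1-S2A*. All 10 of these arrays exceeded the 12 others, which ran from −0.50 in *rrp6*Δ to 0.30 in *set2*Δ. The highest fitted value was 0.76 in *ctk1*Δ in SC (standard error 0.059, adjusted p 2.4e-07). The 3 *HOM* genes stayed between −0.38 and 0.56.

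The step from homocysteine to methionine held the largest changes. *MET6* encodes the methionine synthase and *MET13* the main methylenetetrahydrofolate reductase, which makes its methyl donor. *MET6* was −2.67 and −2.37 in *ctk1*Δ in YPD and −2.48 and −2.29 in *rpb1-S2A*. No array in SC was below −0.90, so the 4 YPD arrays stood apart from the 18 others. The fall was 5.75-fold in *ctk1*Δ (−2.52, standard error 0.082, adjusted p 2.1e-10) and 5.22-fold in *rpb1-S2A* (−2.38, adjusted p 1.2e-10).

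In SC, *MET6* fell only in *pcf11-2*, to −0.90 on its 1 array, a 1.87-fold difference (adjusted p 8.0e-05). It was −0.14 in the other allele, *pcf11-ts2*, whose array differs in dye and replicate as well, and −0.36 and −0.55 in *sen1-1*. *MET13* repeated the split by medium at a smaller size. It was −1.14 and −1.12 in *ctk1*Δ in YPD, and −1.21 and −1.09 in *rpb1-S2A*. In SC it lay between −0.32 and 0.53, with its highest value in *rtt103*Δ. The falls in YPD were 2.19-fold (−1.13, standard error 0.088, adjusted p 2.2e-07) and 2.22-fold (−1.15, adjusted p 1.3e-07).

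*MET12*, which encodes the second methylenetetrahydrofolate reductase, did not pass in YPD, with −0.29 in *ctk1*Δ and −0.48 in *rpb1-S2A*. *MET7*, a folylpolyglutamate synthetase, was low by a like amount in *ctk1*Δ in either medium (−0.58 in both) and in *rpb1-S2A* (−0.62), without passing the fold minimum. For the genes low in YPD, medium and mutation cannot be told apart within a profile, since the pool is the only wild type here and its medium is not in the labels. RNA extraction also differed between arrays. In *rpb1-S2A*, *MET6* was −2.48 on array a, with the standard protocol, and −2.29 on array b, with the high-throughput one. Dye and replicate differ between these arrays as well, so the pair cannot show what the extraction does.

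**Figure D4:**
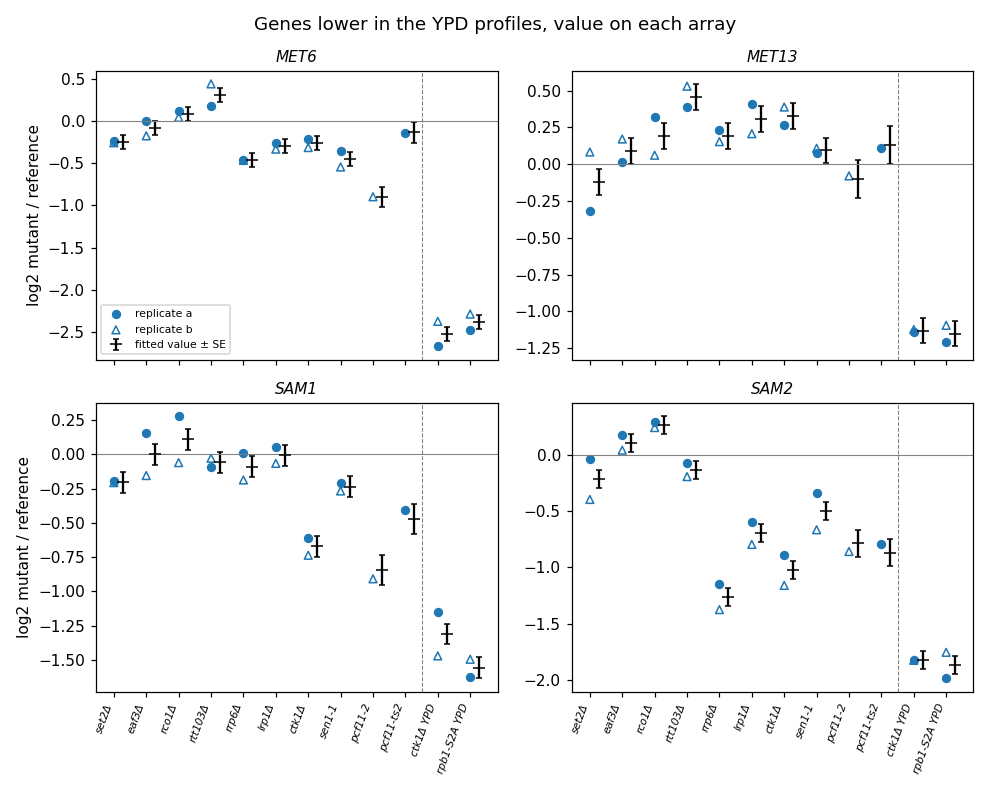
Log2 ratio of mutant over pool for *MET6*, *MET13*, *SAM1* and *SAM2* by profile, with filled circles for array a, open triangles for array b, and bars for the fitted value with its standard error. All 4 genes have their lowest values in the 2 YPD profiles to the right of the dashed line, and *SAM2* is also low in *rrp6*Δ, *ctk1*Δ and both *pcf11* alleles.

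S-adenosylmethionine synthetase is encoded by the paralogs *SAM1* and *SAM2*, and *SAM2* changed in more profiles than any other of the 34 genes: it fell in 6 of 12. In *ctk1*Δ in YPD it was −1.82 and −1.83, and in *rpb1-S2A* −1.99 and −1.75. In *rrp6*Δ it was −1.15 and −1.38, in *ctk1*Δ in SC −0.89 and −1.16, and on the single arrays of *pcf11-2* and *pcf11-ts2* −0.86 and −0.80. The 4 YPD arrays lay below all others. The fold changes were 3.54 in *ctk1*Δ in YPD (adjusted p 1.6e-09), 3.66 in *rpb1-S2A* (adjusted p 8.3e-10), 2.40 in *rrp6*Δ (adjusted p 1.1e-07), 2.04 in *ctk1*Δ in SC (adjusted p 2.9e-07), 1.72 in *pcf11-2* (adjusted p 0.000211) and 1.82 in *pcf11-ts2* (adjusted p 0.000236).

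In *lrp1*Δ *SAM2* was −0.60 and −0.80, under the fold minimum, and in *sen1-1* it was −0.34 and −0.67. Around 0 it was found only in *set2*Δ, *eaf3*Δ, *rco1*Δ and *rtt103*Δ, on whose arrays it ranged from −0.40 to 0.29. Since *SAM2* was low in so many profiles, its median over the 12 was −0.74, and centring each gene on that median instead of the pool ended the calls in *rrp6*Δ (−0.52), *ctk1*Δ in SC (−0.28), *pcf11-2* (−0.04) and *pcf11-ts2* (−0.13), but not those in YPD. In *pcf11-ts2* the call also ended with the deposited ratios (−0.71), and in *pcf11-2* with only the SC arrays in the fit (−0.75).

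*SAM1* fell in 3 profiles. It was −1.15 and −1.47 in *ctk1*Δ in YPD, a 2.48-fold fall (adjusted p 1.7e-08), and −1.62 and −1.49 in *rpb1-S2A*, a 2.94-fold fall (adjusted p 2.4e-09). On the array of *pcf11-2* it was −0.91, a 1.79-fold fall (adjusted p 8.0e-05). That call and that of *MET6* in *pcf11-2* ended with the centring on the median of profiles, both at −0.62. The paralogs parted in *rrp6*Δ, where *SAM1* was 0.01 and −0.19 beside the fall of *SAM2*. Their sequences are closely alike, and signal that one probe takes from the other gene's RNA was not tested.

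*SAM4* and *MHT1* encode homocysteine methyltransferases, which use S-adenosylmethionine and S-methylmethionine as donors, and neither passed in a profile. *SAM4* stayed between −0.23 and −0.02 in the fit, on arrays that differed more than those of any other gene in 4 profiles. *MHT1* was −0.77 and −0.55 in *rtt103*Δ and −0.62 and −0.68 in *ctk1*Δ in SC, its lowest fitted values. Its fitted value was above 0 only in *sen1-1*, with 0.30 and 0.39 on the arrays.

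Transsulfuration and the uptake of methionine changed little. *STR2* and *STR3* lead from cysteine to homocysteine and *CYS4* and *CYS3* lead back, and all 4 stayed between −0.48 and 0.62. *STR3*, cystathionine beta-lyase, was 0.58 on both arrays of *ctk1*Δ in SC, and −0.43 and −0.52 in *rrp6*Δ. The methionine permeases *MUP1* and *MUP3* and the S-methylmethionine permease *MMP1* lay between −0.44 and 0.63. *MUP3*, of low affinity, had its highest fitted value in *ctk1*Δ in SC, with 0.54 and 0.72 on the arrays.

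Of the 5 regulators, *MET32* alone changed. This zinc finger protein, which recruits Met4 to DNA, was 1.36 and 0.96 on the arrays of *sen1-1*, above all 20 others, which did not exceed 0.75. It rose 2.24-fold (1.16, standard error 0.080, adjusted p 8.5e-08). Its paralog *MET31*, also among the dimmest genes, was −0.34 and −0.17 there. *MET32* was also 0.54 and 0.58 in *ctk1*Δ in SC, 0.56 and 0.75 in YPD, and 0.72 and 0.40 in *rpb1-S2A*, below the fold minimum. *MET4* stayed between −0.31 and 0.27 over the 12 profiles and *MET30* between −0.19 and 0.49. *MET28*, a cofactor of Met4, was 0.57 in *ctk1*Δ in SC, and −0.54 in *rrp6*Δ and −0.48 in *lrp1*Δ.

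The profiles with the most of the 34 genes below the pool were *rrp6*Δ and *lrp1*Δ, both of the exosome: 25 and 27, where 50.4% and 50.3% of all features had a ratio below 0. The differences were small, with medians of −0.11 and −0.10, and included *MET2* (−0.48 and −0.37), *STR3* (−0.48 and −0.39), *CYS3* (−0.38 and −0.22), *CYS4* (−0.36 and −0.25) and *MUP1* (−0.40 and −0.27). Tested against each other, *lrp1*Δ and *rrp6*Δ differed in 0 of the 34 genes (0.0628% of features higher and 0.0628% lower), with 2 at an unadjusted p under 0.05 (6.53% of features). *SAM2* was 0.57 higher in *lrp1*Δ (95% interval 0.32 to 0.81, adjusted p 0.048), short of the fold minimum.

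Medium and *ctk1*Δ were set against each other by the difference between the YPD and SC profiles of that mutant. *MET6* was lower in YPD by 4.78-fold (−2.26, 95% interval −2.51 to −2.01, adjusted p 5.7e-08), *MET13* by 2.75-fold (−1.46, −1.73 to −1.19, adjusted p 5.9e-06) and *SAM2* by 1.74-fold (−0.80, −1.05 to −0.55, adjusted p 0.000494). None of the 34 was higher in YPD, where 1.52% of features were higher and 1.22% lower. *SAM1* (−0.64), *MUP1* (−0.65), *HOM2* (−0.63), *STR3* (−0.59) and *HOM3* (−0.54) were lower without passing the fold minimum. By contrast, *MET3* (−0.06, −0.27 to 0.14), *MET14* (0.14, −0.08 to 0.37) and *MET32* (0.09, −0.15 to 0.34) differed little between media. The SC arrays used the high-throughput extraction and the YPD arrays the standard one, so extraction and medium cannot be told apart in this contrast. Leaving out each of these 4 arrays in turn gave median differences of the 34 genes from −0.12 to −0.08. These medians do not show how firm each single call is. The difference of *SAM2* lay close to the fold minimum of 0.77 on the log2 scale, which its 95% interval takes in, unlike those of *MET6* and *MET13*.

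**Figure D5:**
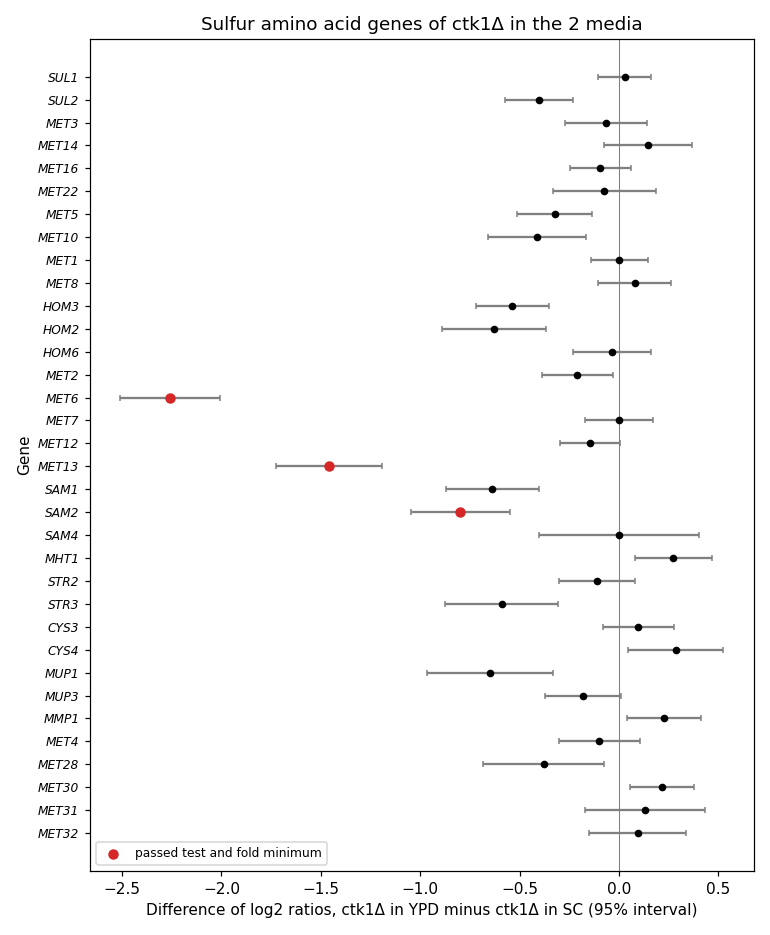
Difference of log2 ratios between *ctk1*Δ in YPD and *ctk1*Δ in SC (horizontal axis, points with 95% intervals) for 34 genes in the order of their roles. Red points mark the 3 changed genes, *MET6* at −2.26, *MET13* at −1.46 and *SAM2* at −0.80.

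Within YPD, *rpb1-S2A* and *ctk1*Δ differed in 0 of the 34 genes, where 0.549% of features were higher and 1.43% lower in *rpb1-S2A*, and 11 of the 34 had an unadjusted p under 0.05 (25.7% of features). These shares rest on a spread estimated over all 22 arrays: with the 4 YPD arrays alone, 1 of 6373 features and 0 of the 34 genes passed. The difference was 0.14 for *MET6* (95% interval −0.11 to 0.39), −0.02 for *MET13* (−0.29 to 0.25), −0.25 for *SAM1* (−0.48 to −0.01) and −0.05 for *SAM2* (−0.29 to 0.20). *MET17* differed between the same profiles by −3.99. *MET10* (0.39, adjusted p 0.038) and *MET30* (0.28, adjusted p 0.025) were higher in *rpb1-S2A* short of the fold minimum.

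Between *sen1-1* and *ctk1*Δ in SC, 1 gene of the 34 differed, where 3.53% of features were higher and 3.88% lower in *sen1-1*. *MHT1* was higher in *sen1-1* by 1.00 on the log2 scale (standard error 0.089, adjusted p 2.6e-06). *MET3* (0.63) and *MET32* (0.60) were higher and *MUP3* (−0.68) was lower by less than the fold minimum. Without array a or array b of *sen1-1* the median difference of the 34 genes was −0.06 or −0.04. These profiles also differ in *MET17*, by −5.25.

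The *pcf11* alleles share the loss of *MET17* with *sen1-1*, and were compared with it. *MET3*, *MET14* and *MET32* had been high in *sen1-1*, the comparator of both alleles, so these contrasts are no separate evidence of their rise there. In *pcf11-2*, *MET3* was 1.93-fold lower (−0.95, adjusted p 8.3e-05) and *MET32* 1.89-fold lower (−0.92, adjusted p 0.000407), with 0 of the 34 higher, where 2.35% of features were higher and 3.45% lower. *MET14* did not pass in *pcf11-2* (−0.29, adjusted p 0.115). In *pcf11-ts2*, *MET3* was 2.31-fold lower (−1.21, adjusted p 1.3e-05), *MET32* 2.07-fold lower (−1.05, adjusted p 0.000153) and *MET14* 1.79-fold lower (−0.84, adjusted p 0.000413), again with 0 higher, against 1.77% and 3.66% of features. On the single arrays *MET3* was 0.35 in *pcf11-2* and 0.08 in *pcf11-ts2*. *MET14* was 0.65 in *pcf11-2* and 0.13 in *pcf11-ts2*, beside 1.14 and 0.77 on the arrays of *sen1-1*. The 95% interval of its difference in *pcf11-ts2*, −1.11 to −0.56, takes in the fold minimum of 0.77.

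Another 42 measured genes connect to the pathway, among them permeases of organic sulfur, methionine salvage, glutathione, folate and threonine genes and subunits of the ubiquitin ligase of Met30. In *ctk1*Δ in SC 2 of them rose and 4 fell (7.28% and 2.84% of all features), and in *sen1-1* 1 and 2 (5.21% and 1.29%). The counts were 2 and 0 in *pcf11-2* (5.54% and 2.09%), 2 and 5 in *ctk1*Δ in YPD (6.79% and 2.7%), 1 and 3 in *rpb1-S2A* (7.23% and 5.16%) and 0 and 1 in *rtt103*Δ (0.126% and 1.15%), with none in the other 6 profiles. *SAM3*, the S-adenosylmethionine permease and the gene next to *SAM4*, fell in 5 profiles: to −1.11 in *rtt103*Δ, −1.79 in *ctk1*Δ in SC, −1.06 in *sen1-1*, −2.03 in *ctk1*Δ in YPD and −2.05 in *rpb1-S2A*. Its neighbour *SAM4* passed in none of them.

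*DFR1*, dihydrofolate reductase, fell in *ctk1*Δ in SC (−1.64) and YPD (−1.35), in *sen1-1* (−1.41) and in *rpb1-S2A* (−1.06). Beside *MET6* and *MET13*, serine hydroxymethyltransferase *SHM2* (−1.31), S-adenosylhomocysteine hydrolase *SAH1* (−1.04) and adenosine kinase *ADO1* (−0.77) fell in *ctk1*Δ in YPD, and *SHM2* was 1.03 higher in *rpb1-S2A* than in *ctk1*Δ (adjusted p 3.8e-05). *IRC7*, a beta-lyase of cysteine and its conjugates, rose in both YPD profiles (1.60 and 1.71). *CBF1*, the partner of Met4, fell in *ctk1*Δ in SC (−0.82), and *YCT1*, a cysteine transporter, rose there (0.85) and in *pcf11-2* (0.83).

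Genes of general amino acid control, which Gcn4 activates, served as a comparison, with 23 measured besides *HOM3*. In *ctk1*Δ in SC 4 rose and 0 fell (7.28% and 2.84% of all features), in *ctk1*Δ in YPD 1 and 2 (6.79% and 2.7%), and in *rpb1-S2A* 3 and 1 (7.23% and 5.16%). In *pcf11-2* 3 rose and in *pcf11-ts2* 1, with 0 lower (5.54% and 3.17% of features rose), while 1 fell and 0 rose in each of *eaf3*Δ, *rtt103*Δ, *rrp6*Δ and *sen1-1* (0.235%, 1.15%, 0.596% and 1.29% of features fell), and none passed in *set2*Δ, *rco1*Δ or *lrp1*Δ. Between the media 6 of the 23 were lower in YPD and 0 higher (1.22% and 1.52% of features), with a median difference of −0.48, beside −0.10 for the 34 sulfur genes. The 6 included *ARG1* (−2.05), argininosuccinate synthetase, and *HIS5* (−1.23), of histidine synthesis.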

How the data were processed

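RNA of 12 *S. cerevisiae* mutant profiles was measured on 22 arrays, and profiles, replicate letters, dyes and extraction protocols were taken from the labels. For each spot the authors deposited raw intensity values, foreground and local background, as the scanner read them. A second deposited table holds normalized log2 ratios, made with limma per the labels (version 2.12.0 for 6 arrays, no version for 16), which were used as an alternative after 6 columns were turned to mutant over pool.

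Intensities were corrected with normexp (offset 50) and normalized by loess in limma 3.58.1 (R 4.3.3), with control spots at weight 0. Both spots of a probe were averaged for 6388 probes, 58 symbols were updated through the RefSeq table of assembly R64, and 6373 features were tested. A linear model with 1 coefficient per profile and a dye term, which is also the split into replicates a and b, was fitted over all arrays with empirical Bayes variances. Calls needed an adjusted p (Benjamini-Hochberg) under 0.05 and a fold over 1.7. Contrasts came from the same fit, and intervals are at 95%. A spot was above background when it exceeded it by 2.6 SD. Precision is limited by how few arrays a profile has.

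The genes and lists were chosen with earlier results of these data known. All 35 genes could be named. Array values are given for those changed in at least 1 profile and for some others, chosen after their values were seen. Of the other listed genes, those not matched are not reported here. Which genes are neighbours was read from the R64 table, and no coordinates or sequences are printed. The alternatives were the background correction, normalization, source of ratios, filter on dim spots, dye term, fold minimum, centring, medium and leaving out each replicate.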

Additional observations from a re-analysis of the deposited data

Results flagged for a closer look

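The ratio of *ctk1*Δ cells to the pool differed between YPD and SC for 3 of the 34 genes, by limma's contrast of the 2 profiles. The difference was −2.26 for *MET6*, −1.46 for *MET13* and −0.80 for *SAM2* on the log2 scale, with 2 arrays in each medium. In SC the fitted ratios were −0.27, 0.33 and −1.03, so that *MET13* was above the pool in SC and below it in YPD. The medium of the pool is not in the labels, and the extraction protocol differed between the media. The difference of *SAM2* lay close to the fold minimum of 0.77 on the log2 scale.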

How the results depend on the processing

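Among the 34 genes without *MET17*, 21 pairs of gene and profile were changed. Of their 202 values under the alternatives, 189 kept their direction and their side of the threshold, 13 kept the direction only, and none changed direction. Contrasts between profiles are outside this tally. Of the 13, 11 came from centring each gene on its median over 12 profiles. Under it no gene was changed in *ctk1*Δ in SC, *pcf11-2* or *pcf11-ts2* (0 each, beside 252, 207 and 79 of 6373 features). In *eaf3*Δ and in *rco1*Δ 1 gene was higher (22 and 21 features), and in *rrp6*Δ 1 was lower (185 features). That gene in *rrp6*Δ was not *SAM2*. *MET2* was −0.48 in *rrp6*Δ, with a median of 0.39 over the 12 profiles. The others of the 13 were *SAM2*, at −0.71 in *pcf11-ts2* with the deposited ratios and −0.75 in *pcf11-2* with arrays of 1 medium. Without the replicate block (no dye term) all 21 calls stood, 6 of them in *rpb1-S2A*. In *ctk1*Δ in SC, 5 genes were changed without background correction (4 higher and 1 lower) and 6 with the deposited ratios (5 higher and 1 lower). Under either setting 669 of 6373 features were changed there. The deposited ratios gave 0 in *pcf11-ts2*, beside 265 features. Median centring gave 1 in *lrp1*Δ, 5 in *sen1-1* and 5 between the media of *ctk1*Δ, beside 83, 432 and 155 of 6373 features. With 1 array left out, the median difference of the 34 genes between *sen1-1* and *ctk1*Δ lay from −0.06 to −0.04. Without the fold minimum, 9 genes were changed in *set2*Δ (26.5% of the 34, beside 26.8% of all features). The counts were 7 for *rtt103*Δ (20.6%, beside 19.4%), 8 for *rco1*Δ (23.5%, beside 18.9%) and 6 for *eaf3*Δ (17.6%, beside 15.2%). For *rrp6*Δ the count was 14 (41.2%, beside 32.2%) and for *lrp1*Δ 13 (38.2%, beside 21.7%). In *ctk1*Δ, 29 genes passed in SC (85.3%, beside 61.3%) and 24 in YPD (70.6%, beside 58.4%). *sen1-1* had 22 (64.7%, beside 52%) and *rpb1-S2A* 26 (76.5%, beside 64%). *pcf11-2* had 15 (44.1%, beside 37.6%) and *pcf11-ts2* 9 (26.5%, beside 21.6%). Between profiles, the same setting gave 11 for the media of *ctk1*Δ (16.5% of features) and 2 for *rpb1-S2A* against *ctk1*Δ (12.9%). It gave 19 for *sen1-1* against *ctk1*Δ (41.8%) and 1 for *lrp1*Δ against *rrp6*Δ (0.596%). For *pcf11-2* and *pcf11-ts2* against *sen1-1* it gave 10 and 8 (26.4% and 24.5%). These counts are higher because the fold minimum is dropped. The cause of the other shifts was not tested. *SUL1* is limited by signal near background.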
